A study of Homo sapiens with 6 samples.

Results

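The axon guidance ligands and receptors are 67 of the 20811 genes in the expression table of HuCCT1 cells with and without forced CD90 expression. The symbols taken were those of the EPH receptors and their ephrin ligands, the class 3 to 7 semaphorins with the plexins and neuropilins that bind them, the SLIT proteins with the ROBO receptors, and the netrins NTN1 and NTN4 with the UNC5 receptors and DCC. HuCCT1 is an established line of human intrahepatic cholangiocarcinoma, a tumour of the bile ducts within the liver. HuCCT1/CD90+ cells received the human THY1-CMV-GFP lentivirus, THY1 encoding CD90, and HuCCT1/CD90- cells received Lenti-CMV-GFP-2A-Puro-Blank, which carries no THY1. Both were transduced at a multiplicity of infection of 40 and kept in RPMI medium with fetal bovine serum. The question was which transcripts change when CD90 increases in this line. Whether each line was a clone or a pool, and whether its libraries came from separate cultures, was not stated, so the p-values measure only the spread between these libraries.

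Axon guidance proteins were named for steering growing nerve fibres, and epithelial cells use many of them at the cell surface. EPH receptors are tyrosine kinases that bind membrane-anchored ephrins on the neighbouring cell, and signals pass in both directions. Class 3 semaphorins are secreted and mostly reach plexins through neuropilins, whereas classes 4 to 7 sit in the cell membrane. SLIT proteins bind ROBO receptors, and netrins bind DCC and the UNC5 receptors, which are also known as dependence receptors because they can drive cell death when no ligand is bound.

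RNA was read in 3 libraries per line with the Ion AmpliSeq Transcriptome panel, which has 1 amplicon per gene, and values are RPM, reads scaled to a common library total. The libraries held 8587634 to 10551516 reads on genes, and 3 reads, the floor used here, correspond to 0.284 to 0.349 RPM. RPM from amplicons carries no correction for amplicon efficiency, so levels are compared between lines and never between genes. For THY1, 0, 1 and 0 reads were found in HuCCT1/CD90- against 435, 445 and 680 reads in HuCCT1/CD90+ cells, which matches the labels. Markers of bile duct epithelium were read in both lines, with 7 of 7 above the floor and a summed level of 8210 to 9314 RPM in HuCCT1/CD90- against 10970 to 11720 RPM in HuCCT1/CD90+ cells.

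Of the 67 guidance genes, 12 were higher and 16 lower in HuCCT1/CD90+ than in HuCCT1/CD90- cells, counting a gene as changed where the adjusted p reached 0.05 or less together with a fold of at least 1.5 on the log2(RPM + 1) scale (limma over all genes, Benjamini-Hochberg). Over all 20811 genes the same rule gave 7.59% higher and 7.49% lower, beside 17.91% and 23.88% of the guidance genes. Without HuCCT1/CD90- replicate 2, 7 guidance genes (10.4%) and 5.53% of all genes were called higher. With the replicate number as a block, 8 guidance genes rose (11.9%) and 13 fell (19.4%), beside 5.24% and 4.86% of all genes. The 12 genes that rose were EPHA1, EPHA10, EPHB3, EPHB4, EPHB6, SEMA3E, SEMA4A, SEMA4D, SEMA5A, PLXNA3, NTN4 and UNC5A. The 16 that fell were EPHA2, EPHA3, EPHA4, EPHA5, EFNB1, SEMA3F, SEMA4C, SEMA6A, SEMA6D, PLXND1, NRP1, NRP2, SLIT2, ROBO1, ROBO4 and UNC5B. Of the remaining 39 genes, 27 were above the floor in at least 1 library and 12 were not above it in any library, namely DCC, EFNB3, EPHA8, EPHB1, NTN1, PLXNC1, ROBO2, ROBO3, SEMA3D, SEMA5B, SLIT1 and UNC5D. At least 1 library was above the floor for 82.09% of the guidance genes and for 67.74% of all genes. In bulk RNA, fewer cells that express a gene and less RNA per cell cannot be told apart.

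The 3 libraries of HuCCT1/CD90+ all lay above those of HuCCT1/CD90- for 15 guidance genes and all below for 25. Over all genes the same separation was seen in 17.3% upward and 17.7% downward. The median log2 fold change was -0.09 over the 67 genes and 0 over all genes, and among genes above the floor it was -0.31 and -0.01. Movement was thus in both directions, and the median size of the change regardless of direction was 0.67 for the guidance genes above the floor against 0.37 for all genes above it. Changes of at least 4-fold on the log2(RPM + 1) scale were found for 7 of the 12 genes that rose and 6 of the 16 that fell, compared with 347 of 1580 and 301 of 1558 over all genes.

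**Figure D1:**
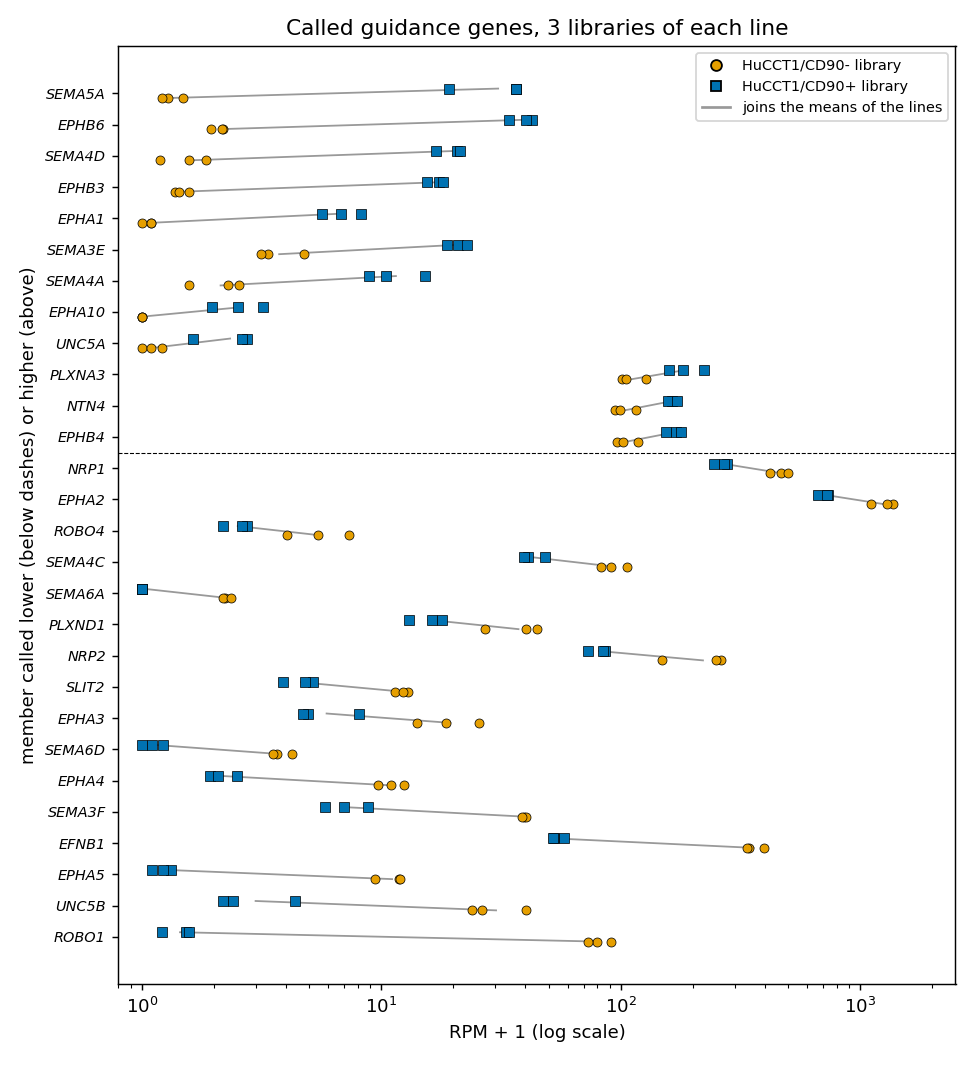
RPM of the guidance genes called different, drawn for each of the 3 HuCCT1/CD90- and 3 HuCCT1/CD90+ libraries on a log axis. In SEMA5A, EPHB3, EPHB6 and SEMA4D the HuCCT1/CD90+ libraries stand far above the others, and in ROBO1 and EPHA5 far below.

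The EPH receptors moved in both directions. Among the 5 B-class genes, 3 rose and none fell, and among the 9 A-class genes, 2 rose and 4 fell. EPHB3, a kinase known for positioning cells in the intestinal epithelium, was read at 0.379, 0.428 and 0.582 RPM in HuCCT1/CD90- and at 14.6, 16.4 and 17.0 RPM in HuCCT1/CD90+ libraries. The lines did not overlap, with means of 0.463 ± 0.106 and 16.0 ± 1.28 RPM (SD, n = 3 libraries here and below), a ratio of summed reads of 34.5 with an exact counting interval of 20.3 to 63.7 (log2 fold change 3.54 ± 0.08 SE, adjusted p = 0.00030). EPHB6, a receptor whose kinase domain is inactive, was read at 0.948, 1.18 and 1.16 RPM in HuCCT1/CD90- libraries and at 41.8, 39.1 and 33.3 RPM in HuCCT1/CD90+ libraries. It was 34.7-fold higher (log2 fold change 4.22 ± 0.10 SE, adjusted p = 0.00032), with no overlap. EPHA1, the founding member of the family, went from 1, 0 and 1 reads to 54, 40 and 67 reads. The ratio of its summed reads, scaled by depth, was 89.6, with a 95% exact counting interval of 24.4 to 746 (log2 fold change 2.68, adjusted p = 0.0015), so the size of this rise is known only roughly, although the HuCCT1/CD90+ libraries stood clear at 5.79, 4.66 and 7.27 RPM.

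EPHB4, a receptor best known from blood vessels, showed a smaller shift from 117, 95.4 and 101 RPM to 170, 177 and 153 RPM. All 3 HuCCT1/CD90+ libraries were higher, by 1.59-fold (log2 fold change 0.67 ± 0.10 SE, adjusted p = 0.017), but with the replicate number as a block the adjusted p was 0.068. Its call was also lost without HuCCT1/CD90+ replicate 1 or 2 or HuCCT1/CD90- replicate 2 or 3, with adjusted p of 0.067, 0.062, 0.052 and 0.067. EPHA10 had 0 reads in every HuCCT1/CD90- library and 0.965, 2.21 and 1.52 RPM in HuCCT1/CD90+ libraries, at least 4.88-fold higher against the floor of 3 reads per library (adjusted p = 0.016). It is a receptor without kinase activity, and since its mean was under 1 RPM it was named only after its values were seen. Its adjusted p was 0.064 with the block and 0.056 to 0.066 without HuCCT1/CD90- replicate 1, 2 or 3 or HuCCT1/CD90+ replicate 3. EPHB2 did not pass the test, at 126 ± 9.16 and 112 ± 8.4 RPM (log2 fold change -0.16, adjusted p = 0.28).

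Among the A-class receptors that fell, EPHA5, expressed chiefly in the nervous system, went from 8.44, 10.9 and 10.96 RPM to 0.322, 0.233 and 0.109 RPM. These last values correspond to 3, 2 and 1 reads, and the ratio of summed reads was 45.5 with an exact counting interval of 20.7 to 125 (log2 fold change -3.18 ± 0.13 SE, adjusted p = 0.0007). EPHA4, which binds ephrins of both classes, was read at 9.95, 8.67 and 11.4 RPM in HuCCT1/CD90- and at 1.501, 0.932 and 1.08 RPM in HuCCT1/CD90+ libraries. No library overlapped, and the level was 8.55-fold lower (log2 fold change -2.34, adjusted p = 0.0018). EPHA2, a receptor found in many carcinomas, stood at 1373, 1291 and 1104 RPM in HuCCT1/CD90- and at 664, 735 and 722 RPM in HuCCT1/CD90+ libraries. Every HuCCT1/CD90+ library was lower, and the means of 1256 ± 138 and 707 ± 37.6 RPM differed 1.78-fold (log2 fold change -0.82 ± 0.10 SE, adjusted p = 0.0095; 0.064 with the replicate block). EPHA3, a receptor for A-class ephrins, was at 13.2, 17.7 and 24.5 RPM in the first line and at 3.97, 3.73 and 7.05 RPM in the second, 3.75-fold lower without overlap (log2 fold change -1.72 ± 0.33 SE, adjusted p = 0.032). This call was lost in 5 of the 6 fits that left a library out, with adjusted p of 0.050 to 0.10, and held only without HuCCT1/CD90+ replicate 3. EPHA7, at 0.663, 0.321 and 0.679 RPM against 0, 0.116 and 0 RPM, had an adjusted p of 0.038 but a fold under the minimum, and EPHA6 reached at most 0.582 RPM.

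Of the 8 ephrin ligands, 1 was called. EFNB1, a transmembrane ligand for B-class receptors, was read at 342, 394 and 337 RPM in HuCCT1/CD90- and at 51.5, 56.7 and 51.1 RPM in HuCCT1/CD90+ libraries. Its libraries were far apart relative to their spread, with means of 358 ± 31.7 and 53.1 ± 3.14 RPM, 6.74-fold lower (log2 fold change -2.73 ± 0.08 SE, adjusted p = 0.00043). EFNB2, the other B-class ligand read above the floor, was at 89.3, 80.7 and 67.9 RPM and at 51.6, 43.4 and 57.5 RPM. It did not overlap but missed the threshold (log2 fold change -0.63, adjusted p = 0.058), whereas the count tests on recovered whole reads gave 0.0037 with edgeR and 0.0015 with DESeq2. None of the 5 A-class ephrins, which are tied to the membrane by a lipid anchor, was called. EFNA1 was at 17.8 and 16.3 RPM (adjusted p = 0.33), and EFNA3 was at 17.7 and 17.8 RPM, a difference whose sign changed under other settings. EFNA4 averaged 4.93 and 3.87 RPM. EFNA5, named after its values were seen, fell short at 5.02 ± 1.3 and 1.94 ± 0.576 RPM (log2 fold change -1.03, adjusted p = 0.053), though its libraries did not overlap and the adjusted p was 0.032 with the replicate block. EFNA2 stayed at or under the floor in HuCCT1/CD90- cells and reached 0.434 RPM in the other line.

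To show the sequence in front of an EPH receptor that rose and in front of the ephrin that fell, the bases upstream of the start of EPHB3 (chr3:184561535-184561783, plus strand), EPHA1 (chr7:143408893-143409106, minus strand) and EFNB1 (chrX:68828771-68828996, plus strand) are printed 5′ to 3′, with CpG dinucleotides in capitals. They are RefSeq promoter windows of GRCh38.p14, cut before any annotated exon, and were picked after the expression values were seen.
EPHB3: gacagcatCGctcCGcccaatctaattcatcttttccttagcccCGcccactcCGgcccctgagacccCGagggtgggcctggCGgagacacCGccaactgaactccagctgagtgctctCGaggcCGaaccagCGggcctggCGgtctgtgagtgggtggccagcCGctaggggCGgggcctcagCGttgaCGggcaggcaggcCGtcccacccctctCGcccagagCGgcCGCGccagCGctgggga
EPHA1: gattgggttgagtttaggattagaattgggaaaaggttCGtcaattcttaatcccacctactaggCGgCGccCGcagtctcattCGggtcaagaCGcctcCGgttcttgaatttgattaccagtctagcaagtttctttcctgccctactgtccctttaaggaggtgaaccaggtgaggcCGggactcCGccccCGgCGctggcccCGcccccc
EFNB1: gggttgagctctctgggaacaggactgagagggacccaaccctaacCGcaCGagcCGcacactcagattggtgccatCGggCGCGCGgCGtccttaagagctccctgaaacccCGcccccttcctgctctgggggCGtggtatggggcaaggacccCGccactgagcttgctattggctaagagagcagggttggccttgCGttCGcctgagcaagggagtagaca
The stretches printed hold 21, 12 and 13 CpG dinucleotides, and the uncut 250 bases before each start hold 21, 17 and 15. Over such uncut windows, the median was 11 CpG over all 35116 promoters in the table, 12 over the promoters of guidance genes that rose, 19 over those of guidance genes that fell and 18.5 over those of guidance genes not called. The E-box CACCTG, read on both strands, occurs in the EPHA1 window with its first base at position 171 and in 17.49% of all promoters, and it was in 2 of 16 promoters of genes that rose, 2 of 20 of genes that fell and 11 of 54 of genes not called. The TEAD motif GGAATG, read likewise, was in 11.89% of all promoters and in 1 of 16, 2 of 20 and 4 of 54 of these groups. The AP-1 motif TGANTCA was in 6.573% of all promoters and in 0 of 16, 0 of 20 and 1 of 54. The promoters cover 11 of the 12 genes that rose, 13 of the 16 that fell and 34 of the 39 not called. A gene with several listed starts counts once per start, as SEMA4A does with 4. These are matches of letters in a window and not shown to be sites.

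Among semaphorins, 4 rose and 4 fell, and classes 3 and 4 each held genes called in opposite directions. SEMA5A, a transmembrane semaphorin with thrombospondin repeats, was read at 0.284, 0.214 and 0.485 RPM in HuCCT1/CD90- and at 18.1, 35.6 and 35.6 RPM in HuCCT1/CD90+ libraries. Its reads were 3, 2 and 5 against 169, 306 and 328, and the ratio of summed reads was 89.4 with an exact counting interval of 48.4 to 187. The lines did not overlap, and the first HuCCT1/CD90+ library was lower than the other two (29.8 ± 10.1 RPM, log2 fold change 4.48 ± 0.31 SE, adjusted p = 0.0022). SEMA4D, the ligand of PLXNB1, went from 0.569, 0.856 and 0.194 RPM to 15.9, 19.8 and 20.3 RPM. The ratio of summed reads was 35.1, with an exact counting interval of 21.4 to 62.0 (log2 fold change 3.69 ± 0.20 SE, adjusted p = 0.0014), and there was no overlap. SEMA4A was at 0.569, 1.28 and 1.55 RPM and at 9.43, 14.2 and 7.92 RPM, 9.27-fold higher (log2 fold change 2.42 ± 0.30 SE, adjusted p = 0.01; 0.051 with the replicate block). SEMA3E, a secreted semaphorin that binds PLXND1 directly, rose 7.23-fold from 2.37, 3.75 and 2.13 RPM to 19.9, 21.8 and 17.9 RPM (log2 fold change 2.50 ± 0.19 SE, adjusted p = 0.0029), again with no overlap.

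SEMA3F, a secreted ligand of NRP2 known for repelling cells, stood at 38.4, 39.3 and 37.8 RPM in HuCCT1/CD90- and at 4.82, 7.80 and 5.97 RPM in HuCCT1/CD90+ libraries. The HuCCT1/CD90- libraries were nearly identical, at 38.5 ± 0.725 RPM, and the fall was 6.21-fold (log2 fold change -2.48 ± 0.16 SE, adjusted p = 0.002). SEMA4C, a ligand of PLXNB2, fell 2.21-fold from 90.2, 105 and 82.1 RPM to 40.0, 38.4 and 47.1 RPM (log2 fold change -1.12 ± 0.13 SE, adjusted p = 0.0085; 0.070 with the replicate block). SEMA6D, a transmembrane semaphorin, had 3.22, 2.67 and 2.52 RPM in HuCCT1/CD90- and 0, 0.233 and 0.109 RPM in HuCCT1/CD90+ libraries. The ratio of its summed reads was 25.4, with an exact counting interval of 8.42 to 126 (log2 fold change -1.77, adjusted p = 0.0019). SEMA6A, named after its values were seen since its mean over all libraries was under 1 RPM, was at 1.23, 1.18 and 1.36 RPM and had no read in the 3 HuCCT1/CD90+ libraries, at least 3.59-fold lower against the floor (adjusted p = 0.00038).

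Of the 12 remaining semaphorins, 2 were at the floor in both lines and 10 were above it and not called. SEMA3A, a secreted ligand of NRP1, was at 45.8 ± 1.6 and 33.8 ± 2.26 RPM, with an adjusted p of 0.013 but a fold under 1.5. SEMA3B, at 27.6 and 19.3 RPM, SEMA3C, at 23.6 and 16.1 RPM, and SEMA6B, at 13.7 and 9.49 RPM, had adjusted p of 0.21, 0.33 and 0.081. SEMA4B, a membrane-bound semaphorin, was at 220 ± 17.2 and 143 ± 27.4 RPM (log2 fold change -0.63, adjusted p = 0.077; edgeR 0.0033 and DESeq2 0.0011). SEMA7A, which is held by a lipid anchor and binds PLXNC1 and integrins, was at 112 ± 23 and 173 ± 25.6 RPM (log2 fold change 0.63, adjusted p = 0.10; edgeR 0.0042 and DESeq2 0.0015). The libraries of SEMA3A, SEMA3B, SEMA6B, SEMA4B and SEMA7A did not overlap between lines, and those of SEMA3C did. The other uncalled semaphorins averaged 0.223 to 5.45 RPM in either line. Among them SEMA4G, named after its values were seen, was at 2.42 and 3.28 RPM without overlap (adjusted p = 0.049, fold under 1.5).

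Both neuropilins, the coreceptors of class 3 semaphorins and of vascular endothelial growth factors, fell. NRP1 was read at 417, 468 and 496 RPM in HuCCT1/CD90- and at 244, 277 and 269 RPM in HuCCT1/CD90+ libraries, 1.75-fold lower without overlap (log2 fold change -0.80 ± 0.09 SE, adjusted p = 0.0074). NRP2 was at 148, 262 and 249 RPM and at 72.3, 84.8 and 83.7 RPM. It was 2.74-fold lower (log2 fold change -1.40 ± 0.26 SE, adjusted p = 0.029), but the first HuCCT1/CD90- library lay well under the other two. With the replicate block its adjusted p was 0.054, and it was 0.081 to 0.097 without any 1 library other than HuCCT1/CD90- replicate 1, without which it was 0.0058.

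Most plexins, the signalling receptors of semaphorins, did not pass the test. Of 9 plexins, 1 rose, 1 fell, 6 were above the floor without a call and PLXNC1 was at the floor. PLXNA3, a receptor for class 3 semaphorins, was at 99.9, 127 and 104 RPM in HuCCT1/CD90- and at 159, 222 and 181 RPM in HuCCT1/CD90+ libraries. It was 1.70-fold higher without overlap (log2 fold change 0.75 ± 0.17 SE, adjusted p = 0.046), close to the threshold, and every fit that left a library out lost the call, with adjusted p of 0.064 to 0.14. PLXND1, the receptor of SEMA3E, was at 26.3, 43.7 and 39.4 RPM and at 12.0, 15.3 and 16.9 RPM. It was 2.47-fold lower without overlap (log2 fold change -1.23 ± 0.24 SE, adjusted p = 0.034), and the call was kept only without HuCCT1/CD90- replicate 1 (adjusted p = 0.024), while the other 5 fits gave 0.085 to 0.11. PLXNA1 averaged 390 and 415 RPM (adjusted p = 0.89), PLXNA2 averaged 40.8 and 55.5 RPM (adjusted p = 0.11), PLXNB1 averaged 36.0 and 45.1 RPM (adjusted p = 0.39) and PLXNB2 averaged 780 ± 192 and 583 ± 120 RPM (adjusted p = 0.37). PLXNB3, at 10.4 and 9.25 RPM, and PLXNA4, at 0.139 and 0.293 RPM, also had no call.

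**Figure D2:**
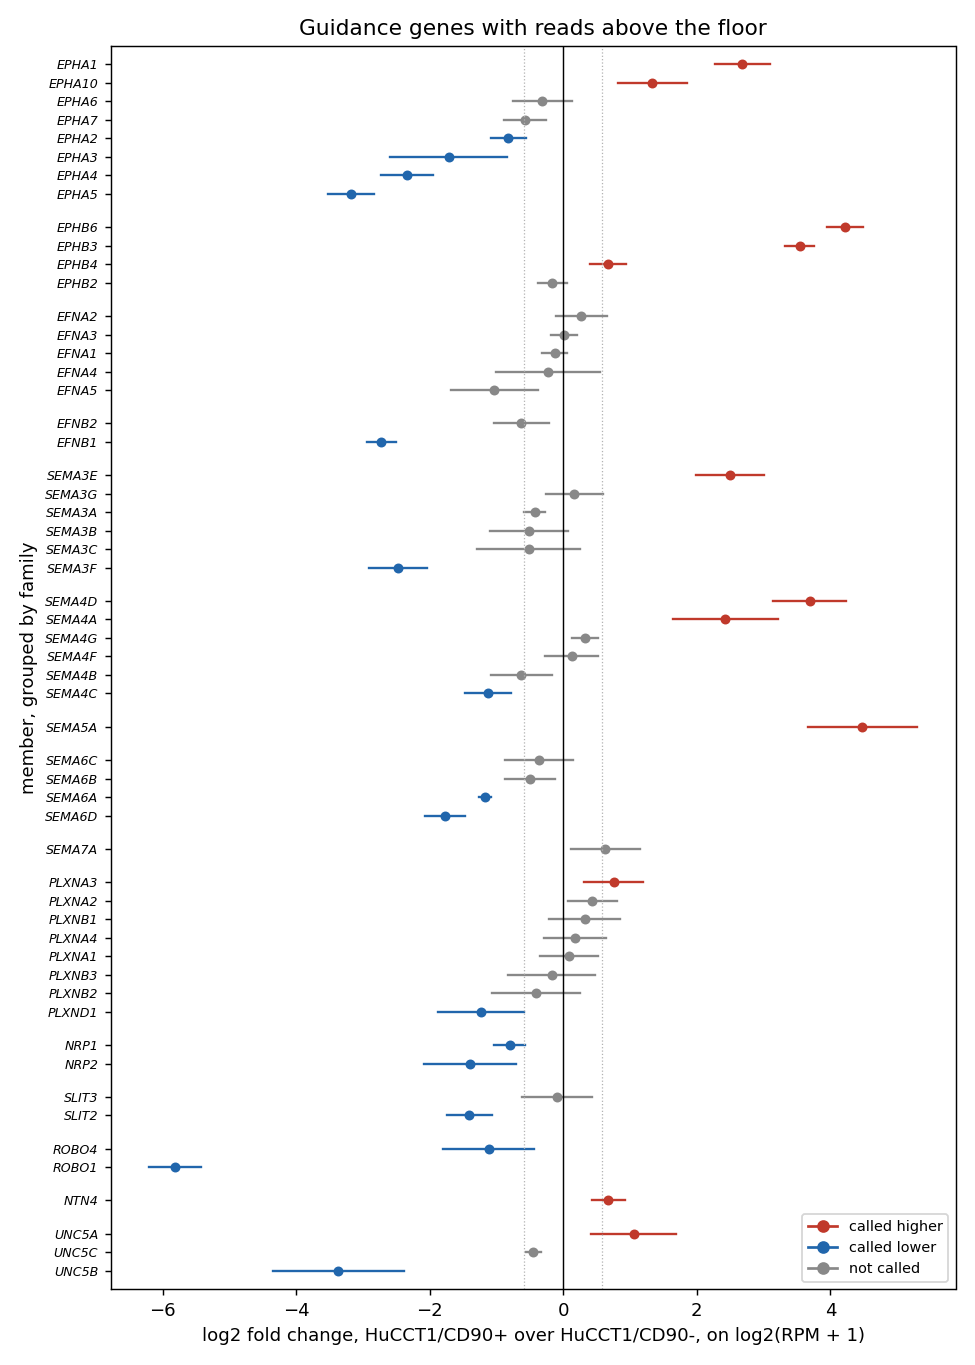
Log2 fold change on the log2(RPM + 1) scale, HuCCT1/CD90+ over HuCCT1/CD90-, of each guidance gene above the floor in at least 1 library, grouped by family. The B-class EPH receptors lie at or above 0 apart from EPHB2 at -0.16, both neuropilins lie below it, and the plexins lie around it.

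ROBO1 had the largest fall in fitted log2 fold change of the 67 genes. This receptor of SLIT proteins was read at 78.8, 71.9 and 90.3 RPM in HuCCT1/CD90- and at 0.536, 0.582 and 0.217 RPM in HuCCT1/CD90+ libraries, from 832, 672 and 931 reads to 5, 5 and 2 reads. The ratio of summed reads was 182, with an exact counting interval of 104 to 353 (log2 fold change -5.82 ± 0.14 SE, adjusted p = 0.00034). SLIT2, a secreted ligand of ROBO1, was at 10.4, 11.9 and 11.3 RPM and at 2.90, 4.19 and 3.80 RPM, 3.09-fold lower without overlap (log2 fold change -1.41 ± 0.13 SE, adjusted p = 0.0045). ROBO4, a receptor best known from endothelium, was at 3.03, 6.31 and 4.46 RPM and at 1.18, 1.75 and 1.63 RPM. It was 3.03-fold lower without overlap (log2 fold change -1.12 ± 0.25 SE), and its adjusted p of 0.049 became 0.056 with the replicate block and 0.079 to 0.14 when any library but HuCCT1/CD90- replicate 1 was left out. The remaining members were SLIT3, at 0.489 and 0.398 RPM, and ROBO2, ROBO3 and SLIT1, at the floor in both lines. The summed level of 4 endothelial markers, read beside ROBO4, was 14.5 to 23.2 RPM in HuCCT1/CD90- libraries against 0.643 to 1.63 RPM with CD90, with CDH5 called lower, the other 3 not called and KDR at the floor, and their part in the result was not tested.

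NTN4, a secreted netrin of basement membranes, was read at 93.3, 98.5 and 115 RPM in HuCCT1/CD90- and at 163, 156 and 170 RPM in HuCCT1/CD90+ libraries. It was 1.59-fold higher with no overlap (log2 fold change 0.67 ± 0.09 SE, adjusted p = 0.014), and without HuCCT1/CD90+ replicate 1 or 3 or HuCCT1/CD90- replicate 2 the adjusted p was 0.055, 0.059 and 0.054. UNC5B, a dependence receptor that binds netrin, went the other way, from 23.03, 39.2 and 25.3 RPM to 1.18, 3.38 and 1.41 RPM. The highest HuCCT1/CD90+ library was well below the lowest HuCCT1/CD90- library, and the level was 14.7-fold lower (log2 fold change -3.37 ± 0.37 SE, adjusted p = 0.0075). UNC5A, named after its values were seen, had 0, 0.214 and 0.097 RPM and 0.643, 1.75 and 1.63 RPM. The ratio of its summed reads was 13.4, with an exact counting interval of 4.22 to 67.8 (adjusted p = 0.048; 0.067 with the replicate block), and the call held only without HuCCT1/CD90+ replicate 1 (adjusted p = 0.012), with 0.11 to 0.15 without each of the others. UNC5C was at 0.379, 0.428 and 0.291 RPM and at 0 in the 3 HuCCT1/CD90+ libraries, too low for a fold of 1.5 on this scale (adjusted p = 0.0046). NTN1, DCC and UNC5D were at the floor in both lines.

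Related genes outside the 67 were counted from lists written by hand. Of 14 other guidance ligands and coreceptors in the table, 1 rose (7.14%) and 2 fell (14.3%), beside 7.59% and 7.49% of all genes. RTN4R, the Nogo receptor, went from 4.07 ± 0.844 to 23.9 ± 5.28 RPM, a difference of 2.29 on the log2 scale (adjusted p = 0.0054; 0.054 with the replicate block). NTNG2, a netrin relative held in the membrane, went from 16.7 ± 5.33 to 0.479 ± 0.0522 RPM, a ratio of summed reads of 34.6 with an exact counting interval of 20.1 to 65.5 (adjusted p = 0.0028), and FLRT2, which binds UNC5 receptors, went from 1.45 ± 0.392 RPM to no read, at least 4.14-fold lower (adjusted p = 0.0053). Of 53 proteins that carry guidance signals inside the cell, 9 rose (17.0%) and 6 fell (11.3%), beside the same 7.59% and 7.49%, with a median log2 fold change of 0.01. DPYSL3, of the collapsin response mediator family that acts below semaphorin receptors, showed the strongest move of that list, from 71.1 ± 14.6 to 1.61 ± 0.756 RPM, 44.3-fold lower (adjusted p = 0.0014). PAK3, a kinase activated by small GTPases, fell 6.41-fold (adjusted p = 0.0036) and ARHGEF19, a guanine nucleotide exchange factor, fell 2.22-fold (adjusted p = 0.0021). FARP1, an exchange factor that links class A plexins to Rac, rose from 0.428 ± 0.218 to 14.0 ± 1.69 RPM, a ratio of summed reads of 32.5 with an exact counting interval of 18.8 to 61.5 (adjusted p = 0.00081). ABLIM1, an actin-binding protein, rose 4.48-fold (adjusted p = 0.002), and GIPC1, an adaptor that binds NRP1, rose 2.59-fold (adjusted p = 0.0018).

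The log2 fold changes of all genes differed between chromosomes, and the guidance genes were set beside those of their surroundings. As a measure of the surroundings, the 50 closest genes averaging 10 RPM or more were found in the gene order of GENCODE 29, and the median of their log2 fold changes was taken. Over such genes the median was 0.55 on chromosome 7 (376 genes), 0.20 on chromosome 3 and -0.32 on chromosome 1 (911 genes). The 8 guidance genes on chromosome 7 had neighbours at 0.50 to 0.67, and 4 of them rose and none fell, where 36.7% of the chromosome's genes averaging 10 RPM or more rose and 2.39% fell. On chromosome 3, 1 of 13 guidance genes rose and 4 fell, where 22.8% of such genes rose and 10.9% fell. On chromosome 1, 2 of 10 guidance genes rose and 1 fell, where 6.15% rose and 22.5% fell. These guidance gene counts include members at any level, so they are not at the same cut as the percentages. Among those that rose, EPHA1, EPHB3, EPHA10 and SEMA4A averaged 2.98, 8.24, 0.783 and 5.83 RPM over all libraries. Those that fell on these chromosomes all averaged 10 RPM or more. EPHB4, with a log2 fold change of 0.67, stood 0.01 above its neighbours. EPHB6 and EPHA1, with neighbours at 0.50, and SEMA3E, with neighbours at 0.57, stood 3.72, 2.18 and 1.92 above them. SEMA3A and SEMA3C, also on chromosome 7, lay 0.95 and 1.19 below theirs. EPHA2, on chromosome 1 with neighbours at -0.35, stood 0.47 below them. ROBO1 had neighbours at -0.02 and EFNB1 at -0.05, and EPHB3 on chromosome 3 stood 2.84 above neighbours at 0.70. What the regional shift contributes to any of these values was not tested.

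**Figure D3:**
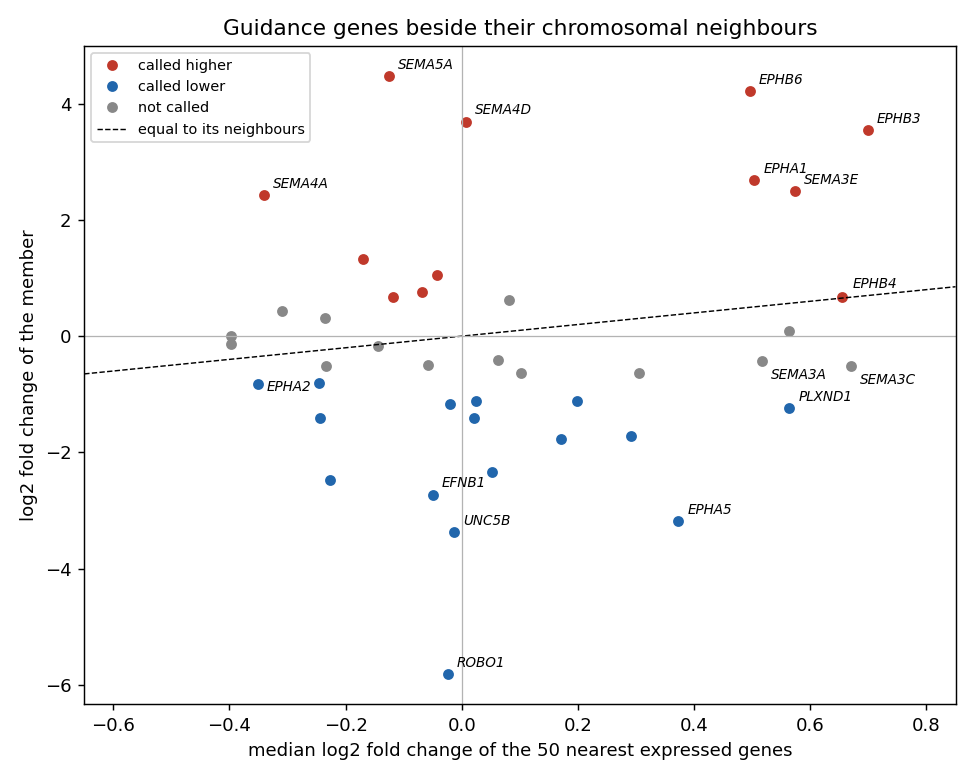
Log2 fold change (vertical axis) of the guidance genes that were called or averaged 10 RPM or more. The horizontal axis is the median over the 50 closest genes averaging 10 RPM or more. EPHB4 lies on the line of equal values, whereas EPHB6, EPHB3, SEMA5A, ROBO1 and EPHA5 lie far from it.

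Markers of other cell types were read beside these genes. Fibroblast markers summed to 25.4 to 52.9 RPM in HuCCT1/CD90- libraries against 6.11 to 10.4 RPM with CD90, with 4 of 5 lower, of which COL1A2 and DCN had adjusted p of 0.090 and 0.086 with the replicate block. Of the 4 immune markers, PTPRC and CD3E were at the floor, CD68 rose and LYZ fell (adjusted p = 0.0082; 0.069 with the replicate block), and the sum went from 61.3 to 66.5 RPM up to 84.7 to 102 RPM. Neuronal markers summed to 1.33 to 5.46 RPM and 0.643 to 1.51 RPM with 0 of 4 called and RBFOX3 at the floor. Of these, SNAP25 was at 3.07 ± 1.69 and 0.481 ± 0.136 RPM without overlap (adjusted p = 0.093; edgeR 0.00039 and DESeq2 0.00038). The libraries of SYP and MAP2 overlapped between lines. The bile duct epithelial genes KRT18 and EPCAM rose. The part of these differences in the guidance gene results was not tested.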

How the data were processed

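Total RNA of 3 libraries per line was amplified with the Ion AmpliSeq panel and run on the GeneStudio S5 Prime instrument. The authors obtained amplicon reads from Torrent Suite's ampliSeqRNA plugin and deposited them as RPM, in 1 table with 20811 genes and no filter. The submitters' processing notes name build hg19 and the Transcriptome Analysis Console. Amplicon positions are not given in the sources used here, and isoforms lacking the amplicon are missed.

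RPM steps gave whole reads for 99.97% to 100% of values per library (tolerance 0.00051 RPM). Libraries of a line differed by more than sampling noise. The RPM values were taken to log2(RPM + 1) and tested with limma 3.58.1 (lmFit, eBayes, R 4.3.3) over all genes. A call needed a Benjamini-Hochberg adjusted p of at most 0.05 and a fold of at least 1.5, and unnamed adjusted p values are from limma. Folds between means are in RPM and exceed those on the log scale for low genes. On whole reads, edgeR 4.0.16 called 4200 of 12070 genes and DESeq2 1.42.0 called 4236 of 17006. Reads carry no molecular identifiers, so floors and intervals cover counting error only.

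Deviations of same-numbered libraries from their line means correlated at r = 0.21, 0.32 and 0.18, and differently numbered ones at -0.29 to 0.07. On this check alone, because no label explains the numbers, they may pair the libraries. The fit behind the reported calls has no block, and the blocked adjusted p stands beside each named call it changed. The members and lists were chosen with earlier results of these data known. Called members averaging 1 RPM or more were named with every library, and uncalled ones averaging 10 RPM or more with their means. Among the signalling proteins, the 6 called genes with the largest changes and an average of 1 RPM or more were named. Alternatives covered offsets, filters, scalings, thresholds, variance settings, the replicate block, count tests and leaving out each library. The value of 1 marker gene is not reported here.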

Additional observations from a re-analysis of the deposited data

How the results depend on the processing

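With the replicate block, 8 of the 67 guidance genes rose (11.9%) and 13 fell (19.4%), beside 5.24% and 4.86% of all genes, 20 of the 28 calls were shared, and the block changed no call among the named genes other than those given with their block values above. With a library left out, 7 to 9 rose (7 without HuCCT1/CD90- replicate 2) and 12 to 15 fell, beside 4.61% to 5.64% and 4.36% to 5.96% of all genes, and 19 of 28 calls held in all 6 fits. Of the called guidance genes averaging 1 RPM or more, 6 of 10 higher and 8 of 15 lower were called under every alternative, and EPHA10, UNC5A and SEMA6A, which average less, each lost the call under at least 1. The median log2 fold change of the members, -0.0934, was -0.01942 with an offset of 5 RPM, -0.41 over genes averaging 1 RPM or more, -0.46 with edgeR, -0.23 with DESeq2, and -0.0934 to -0.02444 with a library left out. The filter of 1 RPM, edgeR and DESeq2 left out members with few or no reads, so these medians cover fewer members. Under the filter of 1 RPM the log2 fold change of each member kept was that of the main fit. Of the 14 other guidance ligands, 2 were called higher with an offset of 0.1 RPM, median centring or an unadjusted p, beside 8.3%, 8.92% and 10.1% of all genes. With DESeq2, 2 were called higher, beside 2172 of 17006 genes. With the replicate block it was 0, beside 5.24% of all genes, and with a library left out 1 to 2. Those called lower numbered 1 with an offset of 5 RPM, beside 5.6% of all genes, and 2 to 3 with a library left out. Of the 53 signalling proteins, 3 rose at a fold of at least 2, beside 4.57% of all genes. With a library left out, 6 to 8 rose and 4 to 7 fell. For both lists, the shares of all genes with a library left out are the 4.61% to 5.64% and 4.36% to 5.96% given above. The log2 fold change of EFNA3 turned with median centring (-0.01791) and ranged from -0.0438 to 0.0737 with a library left out, and PLXNA1 from -0.0156 to 0.201. The cause was not tested. For genes with few reads, such as EPHA10 and UNC5A, depth limits how well a fold is known.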

Other observations

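In 6 of the 7 plexins averaging 1 RPM or more, replicate 2 was the highest library of both lines, a pattern looked for after the values were seen. PLXNA1, for example, was at 343, 454 and 374 RPM in HuCCT1/CD90- and at 351, 474 and 419 RPM in HuCCT1/CD90+ libraries, and PLXNB2 was at 608, 988 and 744 RPM and at 489, 718 and 542 RPM. Over the 8794 genes averaging 10 RPM or more, replicate 2 was highest in both lines in 19.77%. With the replicate number as a block, PLXNB1 had an adjusted p of 0.017 and PLXNB2 of 0.045, but neither reached the fold of 1.5.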
